A study of Mus musculus with 49 samples.

Results

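The MTA_Mm insertions of late 2-cell mouse embryos were examined after acute loss of the TATA-binding protein (TBP). MTA_Mm is a family of long terminal repeat (LTR) retrotransposons, and each copy in the genome has its own row in the insertion tables, either as an LTR (MTA_Mm) or as the internal region between LTRs (MTA_Mm-int). An insertion was taken as a member if its name began with MTA_Mm and if a read was counted for it in 25% or more of the TBP_LOF and TBP_CONTROL embryos with at least 500000 counted reads, which meant 5 of 18 embryos. Of 19265 rows named MTA_Mm, 10748 had a read in these embryos and 4758 were members. The members were 3699 LTRs, 1058 internal regions and 1 row, MTA_Mm_dup4113_ORR1A1_v, that the repeat annotation places in the family ORR1A1 despite its name. At the edge of the rule, 536 members had reads in exactly 5 embryos (median 8 reads in all) and 659 rows just outside it had reads in 1 embryo fewer (median 6 reads).

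Zygotes of the genotype F1(C57BL/6JxCBA/H) were injected with an antibody against TBP (TBP_LOF) or with mouse IgG (TBP_CONTROL), and in a separate experiment with an antibody against FOXJ3 (FOXJ3_LOF) or with rabbit IgG (FOXJ3_CONTROL). All of them, controls included, later received Trim21 mRNA, whose product directs the antibody-bound protein to the proteasome (Trim-Away), and they were collected as single embryos 48 h after hCG. RNA was read with Smart-seq+5', which captures transcript 5' ends as well as internal fragments, and the tables used here count the 5' end reads. Of the 49 embryos, 9 TBP_LOF and 9 TBP_CONTROL embryos were used here, together with 16 FOXJ3_LOF and 13 FOXJ3_CONTROL embryos for the family counts, because insertion tables were analysed here only for the TBP experiment.

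MTA belongs to the MaLR group of LTR retrotransposons, which do not encode their own reverse transcriptase. In the growing mouse oocyte MT LTRs serve as promoters, and their transcripts, many of them fused to the exons of neighbouring genes, are stored and carried into the zygote. ORR1A0 and ORR1A1, which are also MaLRs, and MT2_Mm, the LTR of the retrovirus MERVL, are instead transcribed when the embryonic genome is activated at the 2-cell stage. TBP binds the TATA box upstream of many start sites and nucleates the preinitiation complex, and in the oocyte its paralogue TBPL2 takes that role. An RNA of a late 2-cell embryo can thus come from the oocyte or from the embryo, and a count does not separate these sources.

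The insertion names carry no coordinates and were not linked here to a genome sequence, so the sequences of single insertions are not shown. Annotated transcripts with a MaLR-type start are shown instead. The reverse primer that the study used for the MaLR MT transcript, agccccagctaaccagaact, has its target in 20 of 141767 gencode transcripts, of which 0 also hold the exact forward primer sequence, and the most frequent stretch of 25 bases near the 5' ends of those 20 was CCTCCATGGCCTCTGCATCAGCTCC, present in the first 120 bases of 12 of them. With up to 3 mismatches this stretch lay in the first 120 bases of 129 transcripts of 120 genes. Whether the stretch belongs to MT LTRs alone or to other MaLRs too was not settled, so these are called genes with a MaLR-type start, and their link to single insertion rows is not given. The first 60 bases of 5 of these transcripts are shown because their genes are among the most highly counted ones that fell in TBP_LOF embryos (1600010M07Rik, Ppp2r2a) or among the highly counted ones that did not pass the test (Spin1, Tesc, Pld1), and capitals mark the stretch matched.

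1600010M07Rik: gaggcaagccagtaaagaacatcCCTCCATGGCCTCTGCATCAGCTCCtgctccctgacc
Ppp2r2a: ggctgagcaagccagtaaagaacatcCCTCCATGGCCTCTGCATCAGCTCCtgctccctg
Spin1: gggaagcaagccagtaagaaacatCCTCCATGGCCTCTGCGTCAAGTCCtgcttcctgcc
Tesc: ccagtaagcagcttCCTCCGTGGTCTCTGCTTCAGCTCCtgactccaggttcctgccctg
Pld1: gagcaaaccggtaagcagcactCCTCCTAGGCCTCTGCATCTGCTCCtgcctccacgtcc

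In GRCm38 these exon 1 stretches lie at chr7:110151143-110151202 on the minus strand for 1600010M07Rik, chr14:67043470-67043529 on the minus strand for Ppp2r2a, chr13:51134319-51134378 on the plus strand for Spin1, chr5:118036031-118036090 on the plus strand for Tesc and chr3:27950003-27950062 on the plus strand for Pld1. The matched stretch had 0 mismatches in 1600010M07Rik and Ppp2r2a and 3 in Spin1, Tesc and Pld1.

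Because the factor removed was TBP, the bases upstream of such starts were read as well. Of 32851 RefSeq promoters (GRCm38.p6), 11 had the matched stretch beginning within the first 30 bases after the start, and 6 of these 11 held the letters TATAA between 40 and 16 bases before the start on the transcribed strand, against 3.52% of all promoters. The 11 were picked by a shared stretch and are alike upstream too, so they are not independent of each other, and the difference in shares was not tested. A match of letters is not a binding site. Shown are 60 bases before and 50 after the start, with the TATAA of that window and the matched stretch in capitals, for the 4 promoters with at most 1 mismatch and for Spin1, the most highly counted gene.

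Slx4ip: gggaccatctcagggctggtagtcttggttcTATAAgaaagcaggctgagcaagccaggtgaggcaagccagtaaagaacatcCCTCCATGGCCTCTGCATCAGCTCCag
Gm16249: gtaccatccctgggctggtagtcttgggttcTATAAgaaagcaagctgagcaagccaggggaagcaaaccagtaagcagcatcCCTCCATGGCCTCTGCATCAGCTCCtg
Spin1: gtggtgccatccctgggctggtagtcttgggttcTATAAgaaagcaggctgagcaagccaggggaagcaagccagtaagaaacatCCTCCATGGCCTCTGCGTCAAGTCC
Gm3143: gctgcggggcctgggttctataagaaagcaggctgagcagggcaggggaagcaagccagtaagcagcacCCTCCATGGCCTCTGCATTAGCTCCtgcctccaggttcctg
Iffo2: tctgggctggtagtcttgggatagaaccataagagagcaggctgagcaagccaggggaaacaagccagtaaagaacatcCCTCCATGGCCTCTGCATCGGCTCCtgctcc

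These stretches lie at chr2:136899291-136899400 (plus strand, Slx4ip), chr13:54783042-54783151 (minus strand, Gm16249), chr13:51132737-51132846 (plus strand, Spin1), chr3:34716613-34716722 (minus strand, Gm3143) and chr4:139530488-139530597 (plus strand, Iffo2). RefSeq and gencode place the Spin1 start at different coordinates although the letters after both starts are alike, and the reason was not settled. The 5 sequences share most letters from the TATA-like stretch to the matched one. The first TATAA base lay at -29 in Slx4ip and Gm16249 and at -26 in Spin1, in Gm3143 it lay at -42, outside the window, and in Iffo2 no TATAA was found in the bases shown.

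MTA reads were a large part of these libraries. The members took 4.03% to 8.89% of all counted reads in the 9 TBP_LOF embryos (median 4.70%) and 2.02% to 4.85% in the 9 TBP_CONTROL embryos (median 3.28%), so that 4 TBP_LOF embryos lay above every TBP_CONTROL embryo and all 9 lay above the TBP_CONTROL median. Reads were concentrated in few copies. The 10 members with most reads held 17.1% of all member reads (12.97% to 19.8% in single embryos), the 100 with most reads held 54.3% and the 1000 with most reads held 92.2%. The median member had 30 reads over the 18 embryos, 647 members had fewer than 10, and 780 had reads in every embryo. In all, 35 members had no read in a TBP_CONTROL embryo and 4 had none in a TBP_LOF embryo, so these met the membership rule through the other group alone. Counts were not corrected for insertion length, so they are compared between embryos and not between insertions.

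Counted reads ranged from 1285128 to 4159885 in the TBP_LOF and from 1148892 to 5425733 in the TBP_CONTROL embryos. External ERCC transcripts, added to each lysate, took 2.67% to 6.12% of reads in TBP_LOF and 2.22% to 3.26% in TBP_CONTROL embryos, above every TBP_CONTROL embryo in 7 of 9. Counts were scaled by 42 ERCC transcripts, and a lower scaled count cannot tell fewer cells from less RNA per cell. All 8 late 2-cell markers and all 8 oocyte and zygote markers were read, whereas 5 of 12 cumulus cell markers had no read in any embryo. The cumulus list summed to 0 to 14.5 scaled counts in TBP_LOF and 0 to 48.9 in TBP_CONTROL embryos, and the 5 trophectoderm markers to 1.23 to 35.9 and 0 to 28.7, and their part in any result was not tested.

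**Figure D1:**
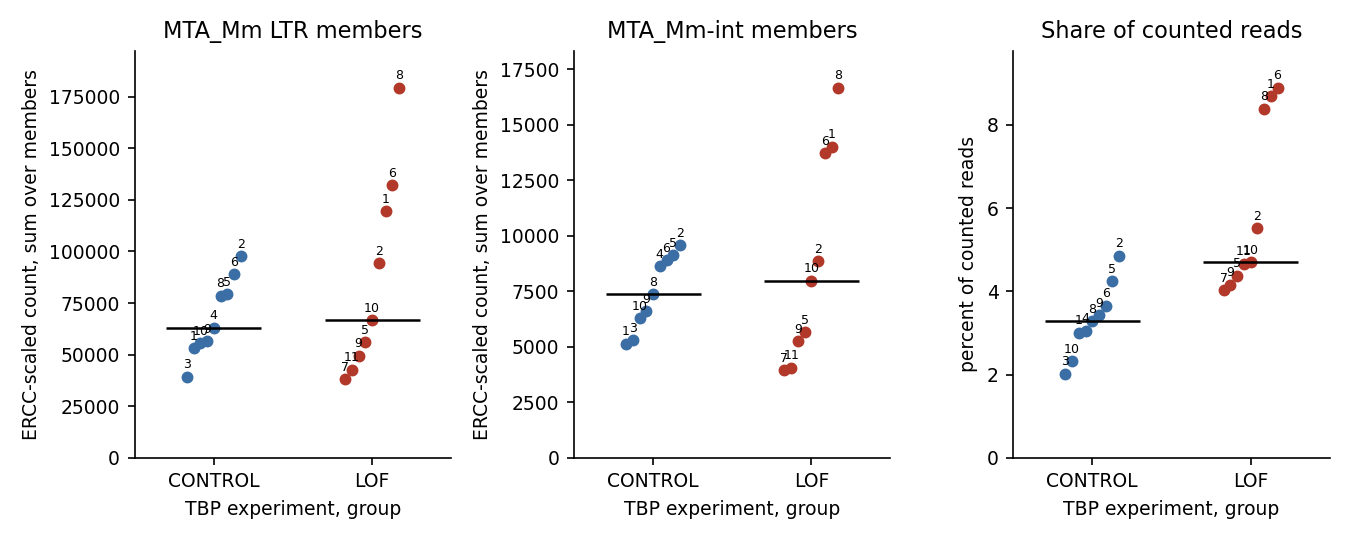
Summed ERCC-scaled counts of the MTA_Mm LTR members (left) and MTA_Mm-int members (middle), and the members' share of counted reads in percent (right), with 1 point per embryo, its number beside it, and a line at the group median. LOF embryos 1, 6 and 8 lie above every CONTROL embryo in each panel, and in the scaled sums the other LOF embryos overlap the CONTROL embryos or, for embryo 7 in both sums and embryo 11 in the middle panel, lie below them.

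On the ERCC scale the summed MTA transcripts did not separate the groups. The summed LTR count was 38160 to 179300 (median 66750) in TBP_LOF and 39300 to 97700 (median 63050) in TBP_CONTROL embryos, and the summed internal count was 3952 to 16660 (median 7970) and 5133 to 9584 (median 7382). The 3 TBP_LOF embryos 1, 6 and 8 lay above every TBP_CONTROL embryo in both sums, and 2 others lay below every TBP_CONTROL embryo in the internal sum and 1 in the LTR sum. Among the 780 members read in every embryo, the highest scaled count was in TBP_LOF embryo 8 for 351, in embryo 1 for 138, in embryo 6 for 87 and in embryo 2 for 67, and in TBP_CONTROL embryo 2 for 35.

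Single insertions were then compared between TBP_LOF and TBP_CONTROL embryos, the question being which MTA copies differed in transcript level when TBP was removed. Of the 4758 members, 21 were lower in TBP_LOF embryos and 36 were higher at an adjusted p under 0.05 (edgeR quasi-likelihood test, Benjamini-Hochberg adjustment over all 59208 insertions and genes tested), that is 0.441% and 0.757% of the members. Over all features the same test called 14.6% lower and 0.76% higher, so few MTA copies were among the many features that fell, and the share that rose was near the background on the ERCC scale. On the ERCC scale most calls came from the 1097 members read in fewer than 3 embryos of a group, 14 lower (1.28%) and 32 higher (2.92%). The shares of all features so read are not given here, so these counts are not read as a trait of MTA copies. The 3661 members read in at least 3 embryos of each group gave 7 lower and 4 higher. These were 0.191% and 0.109% of them, against 12.9% and 0.369% of all features so read. Under TMM scaling 193 members (4.06%) were higher against 2.64% of all features. Of these, 134 were among the 3661 members read in at least 3 embryos of each group. They were 3.66% of those members, against 2.64% of all features so read. At an unadjusted p under 0.05 on the ERCC scale, 52 of the 4758 members were lower and 149 higher, against 15069 and 1549 of all 59208 features. The median log2 fold change of the members (TBP_LOF over TBP_CONTROL) was 0.29 against -0.69 for all features tested, and 66.25% of the members had a positive value against 31.4% of all features. Without TBP_LOF embryo 8 the median of the members was 0.13. A single insertion was measured coarsely, with a median standard error of 0.96 on the log2 scale.

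The counts of called members moved with single embryos and with the test. Without TBP_LOF embryo 8 the lower count was 32, and the higher count was 23 without TBP_LOF embryo 2 and 22, 23, 20, 19 and 20 without TBP_CONTROL embryos 1, 3, 8, 9 and 10. The shares of all features called in those fits are not given here. The DESeq2 test with the same ERCC factors gave 16 lower and 11 higher of 3483 members that it could adjust. Over all 46766 features that it could adjust, 18.9% were lower and 0.671% higher.

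In every level class a smaller share of the members than of the other features was called lower, and the shares lay farthest apart in the highest class. Among members with a mean scaled count under 1, 0.445% were lower against 7.77% of the other features of that level, and from 10 to 100 the shares were 0.675% and 26.1%. At a mean of at least 100, 1 of 172 members was lower (0.581%) against 49.1% of 2303 other features, and 93.0% of the members but 19.2% of the other features had a positive log2 fold change. The median log2 fold change of the members was 0.25, 0.28, 0.33 and 0.34 in the 4 level classes, and that of the other features was -0.69, -0.87, -0.79 and -1.02. Precision also rose with level, the median standard error of the other features going from 1.04 to 0.34 and that of the members from 1.01 to 0.37.

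**Figure D2:**
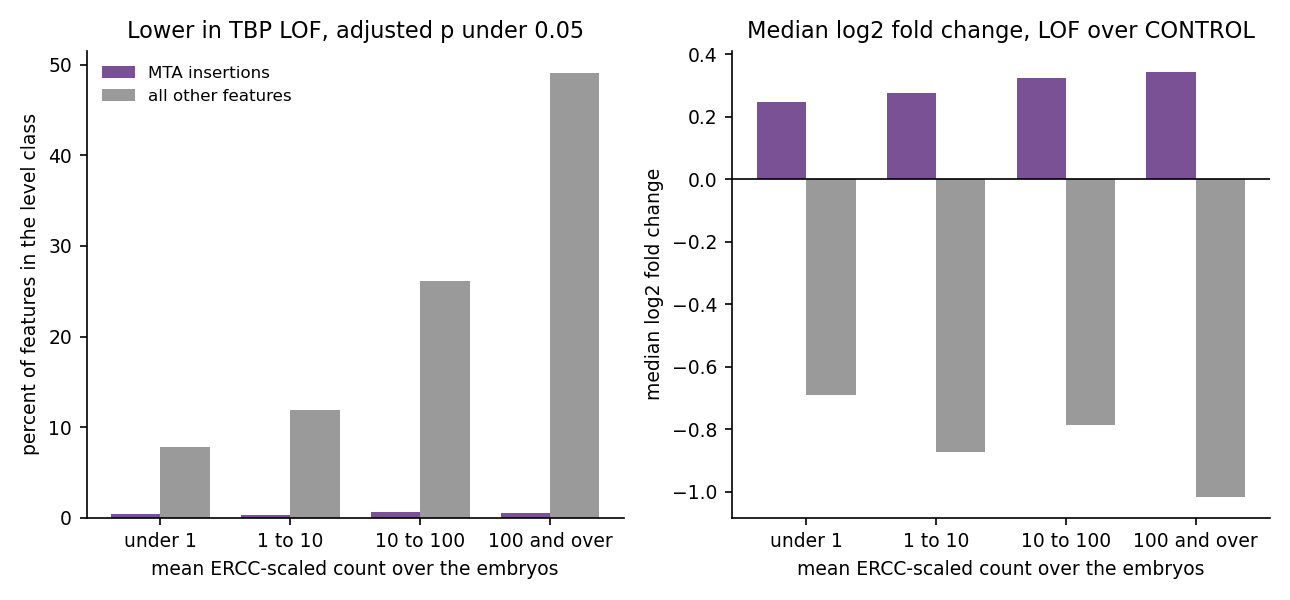
Percent of features lower in TBP LOF at an adjusted p under 0.05 (left) and median log2 fold change, LOF over CONTROL (right), for MTA insertions and all other features, in 4 classes of the mean ERCC-scaled count over the 18 embryos. The MTA bars on the left stay between 0.352% and 0.675% while the other features reach 49.1%, and the medians have opposite signs in every class.

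Groups without overlap were rare among the members. In 1 member, MTA_Mm_dup4113_ORR1A1_v, every TBP_LOF embryo lay below every TBP_CONTROL embryo, and in 0 members every TBP_LOF embryo lay above, where 2.71% and 0.00338% of all features did so. This is the member that the annotation places in ORR1A1. It had 0 to 7.94 scaled counts in TBP_LOF (median 2.46) and 22.1 to 77.5 in TBP_CONTROL embryos (median 43.0). Its log2 fold change was -4.20 ± 0.65 (SE; edgeR adjusted p = 0.000144), and it kept its call under each of the 7 alternative settings and without each of the 18 embryos.

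Among LTRs that bear the MTA_Mm family name, MTA_Mm_dup12321 fell with the smallest adjusted p. It had 1.47 to 55.7 scaled counts in TBP_LOF (median 24.1) and 51.5 to 159.9 in TBP_CONTROL embryos (median 102.8). All 9 TBP_LOF embryos were below the TBP_CONTROL median, and the highest TBP_LOF embryo overlapped the lowest TBP_CONTROL embryo. The log2 fold change was -2.08 ± 0.45 (SE; edgeR adjusted p = 0.00297), called under all 7 alternative settings. The next 4 LTRs by adjusted p were read only faintly. MTA_Mm_dup4114, whose number follows that of the ORR1A1-placed row (whether the copies are neighbours was not analysed here), had 0 reads in TBP_LOF and 20 in TBP_CONTROL embryos, at least 9.85-fold lower when 3 reads over the group are taken as the floor. MTA_Mm_dup2065 and MTA_Mm_dup5031 had 0 reads against 12 each, at least 5.91-fold lower, and MTA_Mm_dup4232 had 1 read against 16, a ratio of 23.6 (3.67 to 991, exact 95% interval for counting error only). In each of these 4, 5 or 6 of the 9 TBP_CONTROL embryos had a read, so several TBP_CONTROL embryos also had none. The TBP_CONTROL embryos alone met the membership rule for these 4, so their calls and folds are not independent of that rule. MTA_Mm_dup4232 did not pass under TMM scaling (edgeR adjusted p = 0.0621), DESeq2 size factors (0.0619) or no filter (0.0742), and MTA_Mm_dup4114 and MTA_Mm_dup5031 did not pass the DESeq2 test (adjusted p = 0.0620 and 0.0684).

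Of the 1058 internal regions 6 were lower and 6 higher (0.567% each), where 14.6% of all features were lower and 0.76% higher. MTA_Mm-int_dup884 had 0 to 1.21 scaled counts in TBP_LOF embryos, with a median of 0, against 0 to 28.3 in TBP_CONTROL embryos (median 12.6), of which 8 of 9 had a read. Its log2 fold change was -4.91 ± 0.96 (SE; edgeR adjusted p = 0.00124). MTA_Mm-int_dup2397 had 0 to 17.2 scaled counts in TBP_LOF (median 2.90) against 13.9 to 77.9 in TBP_CONTROL embryos (median 48.8), with a log2 fold change of -3.17 ± 0.66. MTA_Mm-int_dup2991 had 0 to 6.35 (median 0) against 3.05 to 14.8 (median 8.31), with a log2 fold change of -3.40 ± 0.99, and TBP_LOF embryo 8 held its only TBP_LOF count above 1.47. All 9 TBP_LOF embryos lay below the TBP_CONTROL median for each of these 3. MTA_Mm-int_dup884 and MTA_Mm-int_dup2991 were each read in 2 TBP_LOF embryos, and in 8 and 9 TBP_CONTROL embryos. The TBP_CONTROL embryos alone met the membership rule for both, so their calls and fold changes are not independent of that rule.

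Among called members with a mean scaled count of at least 10, a group picked after the values were seen, 3 more LTRs fell. MTA_Mm_dup11224 had 0 to 26.4 scaled counts in TBP_LOF (median 12.5) against 18.1 to 72.5 in TBP_CONTROL embryos (median 49.7), and MTA_Mm_dup3596 had 0 to 9.66 (median 0.82) against 0 to 38.8 (median 20.8). MTA_Mm_dup4193, the most read of the called members with 2489 reads, had 8.45 to 164.2 (median 34.3) against 37.1 to 266.0 (median 180.6). Their log2 fold changes were -1.84 ± 0.58, -2.69 ± 0.93 and -1.63 ± 0.50. Under TMM scaling none of these 3 passed, with edgeR adjusted p = 0.215, 0.296 and 0.594 in that order, and MTA_Mm_dup3596 kept its call in 5 of 18 fits that left out 1 embryo. MTA_Mm_dup11224 lost its call without TBP_CONTROL embryos 1, 5 or 6 or TBP_LOF embryo 5 (edgeR adjusted p of 0.0502 to 0.0518), and MTA_Mm_dup4193 without TBP_CONTROL embryo 4 or 10 (0.0505 and 0.0513). Of the 21 members that fell, 11 kept their call without any 1 embryo and 3 under every alternative.

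The members that were higher had few reads. Of the 36, 22 had no read in a TBP_CONTROL embryo, 26 had a mean scaled count under 1, and their median number of reads was 13. Those 22 met the membership rule through TBP_LOF embryos alone, so their calls are not independent of that rule. MTA_Mm_dup4674 had 31 reads in TBP_LOF and 1 in TBP_CONTROL embryos, a ratio of 20.98 (3.497 to 855.2, exact 95% interval for counting error only). MTA_Mm_dup14405 had 68 reads against 3, a ratio of 15.3 (5.03 to 76.3), but 63.4% of its reads came from TBP_LOF embryo 8, without which its edgeR adjusted p was 0.0956. MTA_Mm_dup4674 and MTA_Mm_dup14405 were read in 7 and 6 TBP_LOF embryos and in 1 and 2 TBP_CONTROL embryos. The TBP_LOF embryos alone met the membership rule for both, so their calls and ratios are not independent of that rule either. MTA_Mm_dup7884, MTA_Mm_dup141 and MTA_Mm_dup15162 had 11, 23 and 18 reads in TBP_LOF and 0 in TBP_CONTROL embryos, at least 2.48-fold, 5.19-fold and 4.06-fold higher. They were read in 7, 6 and 5 TBP_LOF embryos and are among the 22 that met the rule through TBP_LOF embryos alone.

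Of the 3 internal regions with the smallest adjusted p among the 36 higher members, MTA_Mm-int_dup2924 had the most reads, 188 in all. It had 4.91 to 26.1 scaled counts in TBP_LOF (median 10.6) and 0 to 10.4 in TBP_CONTROL embryos (median 2.71), and all 9 TBP_LOF embryos were above the TBP_CONTROL median. Its log2 fold change was 2.24 ± 0.71 (SE; edgeR adjusted p = 0.0318), called in 14 of 18 fits without 1 embryo and lost, at adjusted p of 0.0511 to 0.0576, without TBP_LOF embryos 1, 2 or 6 or TBP_CONTROL embryo 10. It also did not pass with no filter (edgeR adjusted p = 0.115) or with the replicate block (0.0784). MTA_Mm-int_dup1499 had 127 reads against 10, with 39.4% of all its reads in TBP_LOF embryo 10, and it did not pass without TBP_LOF embryo 6 or 10 (edgeR adjusted p = 0.0504 and 0.105). It was read in 6 TBP_LOF and 3 TBP_CONTROL embryos. The TBP_LOF embryos alone met the membership rule for it, so its call is not independent of that rule. MTA_Mm-int_dup2870 had 10 reads against 0, at least 2.26-fold higher, and did not pass without TBP_LOF embryo 1 or TBP_CONTROL embryo 8 or 9 (edgeR adjusted p = 0.0530, 0.0515 and 0.0540). It was read in 6 TBP_LOF embryos and so met the membership rule through TBP_LOF embryos alone. The call of MTA_Mm_dup2457 rested on 1 embryo. TBP_LOF embryo 10 held 78.6% of its reads, at 1023 scaled counts where the next TBP_LOF embryo had 34.5 and the highest TBP_CONTROL embryo 38.0, and its log2 fold change of 3.64 became 0.18 without that embryo (edgeR adjusted p = 0.924). Of the 36 higher members, 6 kept their call without any 1 embryo and 0 under every alternative.

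The most highly counted MTA copies overlapped between the groups. MTA_Mm_dup13229, the LTR with the highest mean in TBP_CONTROL embryos, had 1361 to 6633 scaled counts in TBP_LOF (median 2218) and 993.1 to 3535 in TBP_CONTROL embryos (median 2522), with a log2 fold change of 0.29 ± 0.33 (SE; edgeR adjusted p = 0.6225). The next 5 LTRs were MTA_Mm_dup5965, MTA_Mm_dup8421, MTA_Mm_dup11487, MTA_Mm_dup12998 and MTA_Mm_dup10060, with log2 fold changes of 0.44, 0.36, 0.37, 0.42 and 0.52 and standard errors of 0.31 to 0.37. All 6 had their highest count in TBP_LOF embryo 8, none passed the test on the ERCC scale with the filter used, and without that embryo their values ranged from 0.04 to 0.31. The 4 internal regions with the highest TBP_CONTROL mean, MTA_Mm-int_dup594, MTA_Mm-int_dup595, MTA_Mm-int_dup2722 and MTA_Mm-int_dup188, had log2 fold changes of 0.30, 0.31, 0.28 and 0.50 with standard errors of 0.37 to 0.47, and none passed. Under TMM scaling, MTA_Mm_dup5965, MTA_Mm_dup8421, MTA_Mm_dup12998, MTA_Mm_dup10060 and MTA_Mm-int_dup595 passed as higher, with log2 fold changes of 1.00, 0.91, 0.96, 1.13 and 0.96. With DESeq2 size factors all 6 LTRs and MTA_Mm-int_dup595 passed as higher, and on the ERCC scale with no filter on low counts MTA_Mm_dup5965 and MTA_Mm_dup10060 did (edgeR adjusted p = 0.00762 and 0.0187).

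**Figure D3:**
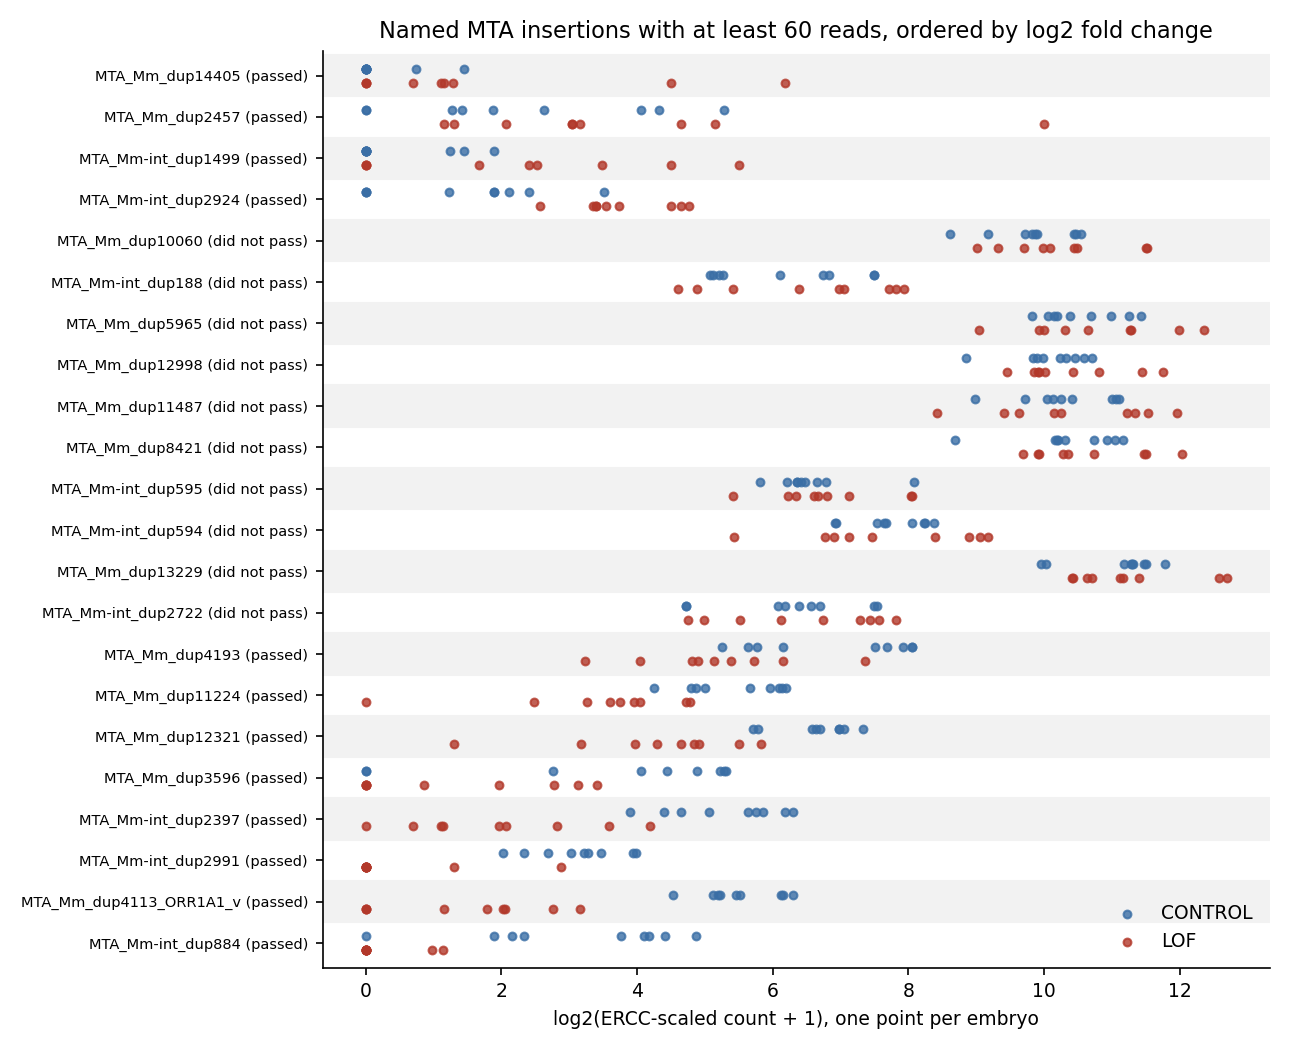
log2(ERCC-scaled count + 1) of the 22 named MTA insertions with at least 60 reads, 1 point per embryo, CONTROL in blue above LOF in red in each row, ordered by log2 fold change, with passed or did not pass for an adjusted p under 0.05. The highly counted copies in the middle rows overlap between groups, MTA_Mm_dup4113_ORR1A1_v is the only row without overlap, and a single LOF embryo at the right sets MTA_Mm_dup2457 apart.

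The family counts, which also take in reads of MTA copies outside the rule, gave no call on the ERCC scale. MTA_Mm had 38950 to 182600 scaled counts in TBP_LOF (median 67740) and 41360 to 99960 in TBP_CONTROL embryos (median 65120), a log2 fold change of 0.34 ± 0.37 (SE; edgeR adjusted p = 0.544 over 19357 genes and families, of which 29.7% were lower and 1.34% higher). MTA_Mm-int had 4171 to 17440 (median 8281) against 5677 to 10190 (median 7726), a log2 fold change of 0.24 ± 0.32 (edgeR adjusted p = 0.642). The ranges overlapped in both, and leaving out TBP_LOF embryo 8 lowered the values to 0.14 and 0.08. With TMM scaling, which sets the bulk of features to no change, the same families were 1.09 and 0.98 higher on the log2 scale (edgeR adjusted p = 0.00667 and 0.00299), so that whether the families passed as higher depended on the scaling. TMM moved the median of all features from -0.69 to -0.06, that of the members from 0.29 to 0.85, and the calls among the members to 8 lower and 193 higher, while 6.76% of all features were then lower and 2.64% higher.

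**Figure D4:**
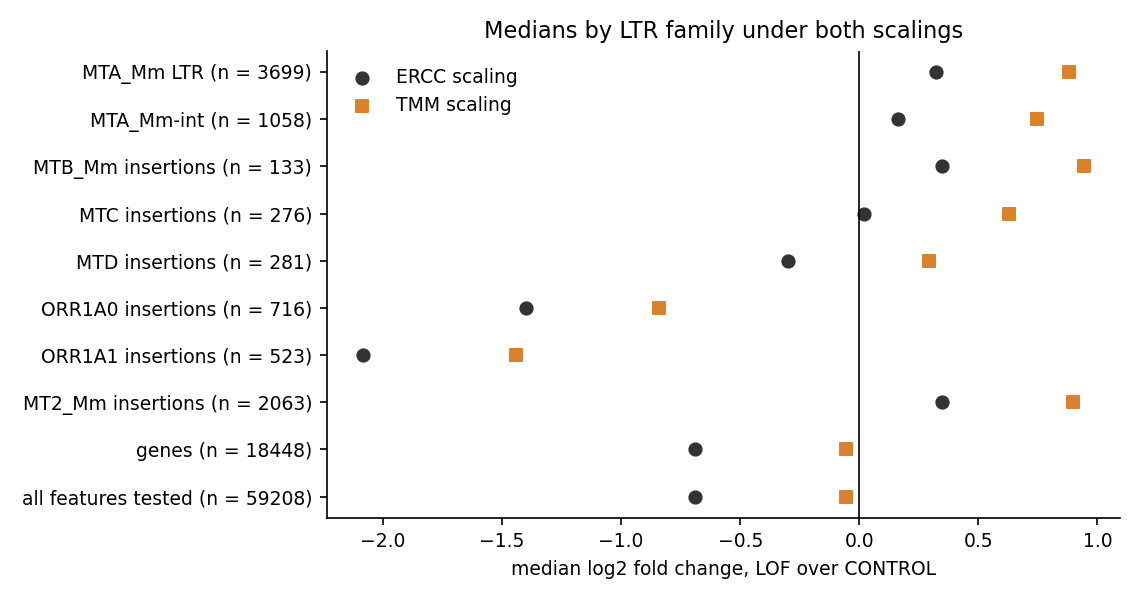
Median log2 fold change, LOF over CONTROL, over the tested insertions of each LTR family, over genes and over all features, under ERCC scaling (circles) and TMM scaling (squares), with n features in each row. MTA_Mm LTRs move from 0.32 to 0.88 and ORR1A1 insertions from -2.09 to -1.44, and the order of the families is almost the same on both scales.

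Ratios of family counts within an embryo need no scaling, and they set MTA apart from the ORR1A families but not from MTB_Mm or MT2_Mm. The MTA_Mm count was 5.36 times the ORR1A0 count in the median TBP_CONTROL embryo and 19.8 times in the median TBP_LOF embryo. The log2 ratio was 1.83 to 2.84 in TBP_CONTROL and 3.62 to 5.39 in TBP_LOF embryos, a difference in means of 1.99 (two-sided exact permutation test over 9 against 9 embryos, p = 4.11e-05, the smallest that this design allows, and adjusted p = 0.000103 over 5 ratios). The MTA_Mm to ORR1A1 log2 ratio was 2.39 to 3.57 in TBP_CONTROL and 4.65 to 6.51 in TBP_LOF embryos, a difference of 2.56 with the same exact p. In both ratios all 9 TBP_LOF embryos lay above the highest TBP_CONTROL embryo.

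MTB_Mm is another MT family, and its proportion to MTA_Mm overlapped between the groups. The MTA_Mm to MTB_Mm log2 ratio had a mean of 6.64 ± 0.29 (SD, n = 9) in TBP_CONTROL and 6.63 ± 0.41 (SD, n = 9) in TBP_LOF embryos, a difference of -0.01 by the exact permutation test (adjusted p = 0.936). The MTA_Mm to MT2_Mm log2 ratio was 0.58 ± 0.33 and 0.62 ± 0.64, a difference of 0.05 (exact permutation test, adjusted p = 0.936), and here TBP_LOF embryos reached 2.07 where the highest TBP_CONTROL embryo had 1.01. The MTA_Mm-int to MTA_Mm log2 ratio was -3.12 ± 0.20 in TBP_CONTROL and -3.23 ± 0.13 in TBP_LOF embryos, a difference of -0.12 (exact permutation test, adjusted p = 0.279). These last 3 differences were smaller than the spread between embryos of a group, which does not show that the proportions were equal.

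**Figure D5:**
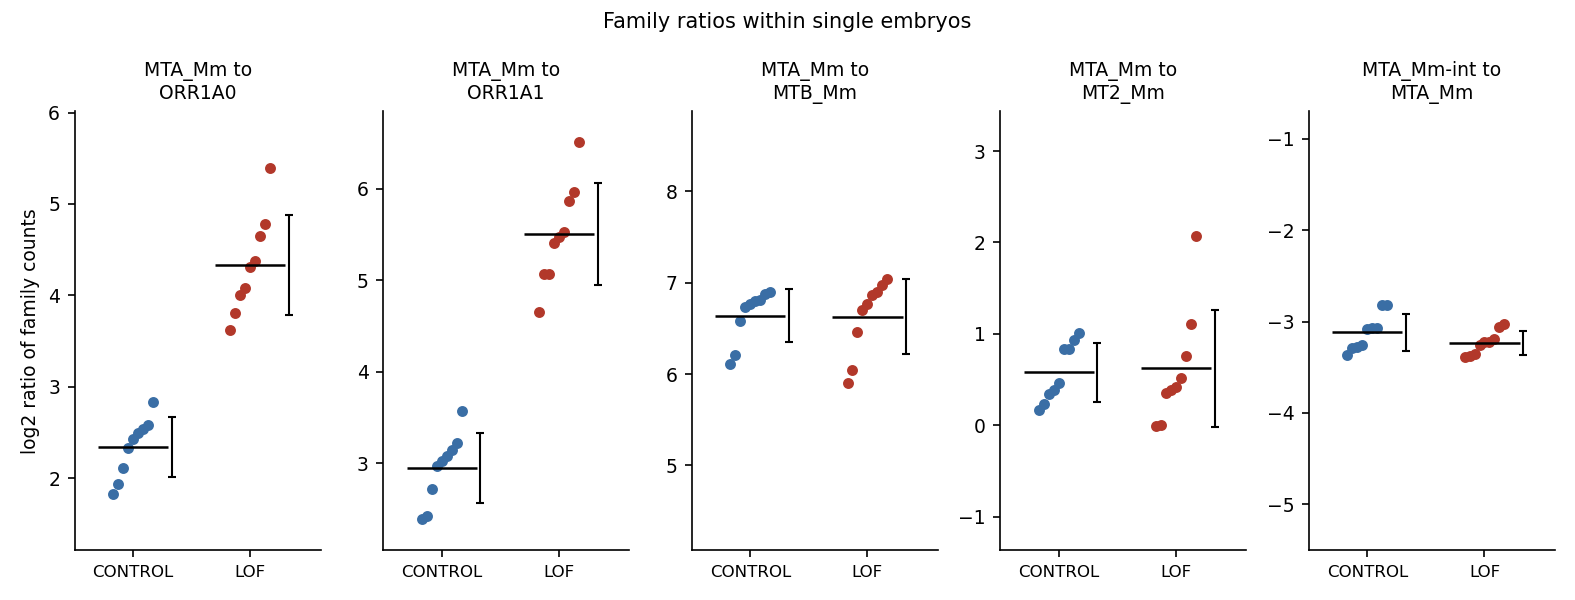
log2 ratios of family counts within single embryos, 1 point per embryo, with a line at the group mean and a bar of 1 SD to its right, all panels spanning the same number of log2 units. The LOF and CONTROL points do not overlap for MTA_Mm to ORR1A0 and MTA_Mm to ORR1A1, and they overlap for the other 3 ratios.

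The insertions of the other LTR families, tested in the same fit, gave the same order. Over all features 14.6% were lower and 0.76% higher, and over the MTA members 0.441% and 0.757%. Of 716 ORR1A0 insertions 152 were lower (21.2%) and 1 higher, with a median log2 fold change of -1.40, and of 523 ORR1A1 insertions 181 were lower (34.6%) and 0 higher, with a median of -2.09. At an unadjusted p under 0.05, 0 ORR1A1 insertions were higher, and DESeq2 also gave 0. The 133 MTB_Mm insertions gave 3 lower and 3 higher (median 0.35) and the 2063 MT2_Mm insertions 33 lower and 54 higher (median 0.35). MTC and MTD, the older MT families, had medians that lay between, with 17 lower and 3 higher of 276 (6.16% and 1.09%, median 0.02) and 22 lower and 2 higher of 281 (7.83% and 0.712%, median -0.30).

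Genes with a MaLR-type start, whose sequences are shown above, were described beside the insertions. Of the 103 tested, 8 fell and 0 rose (7.77% lower), where 21.0% of all genes fell and 0.575% rose in the same fit. At an unadjusted p under 0.05, 9 were lower and 3 higher, against 5931 and 372 of all 18448 genes. DESeq2 gave 8 lower and 1 higher, where it gave 29.6% of all genes lower and 0.642% higher. TMM scaling gave 2 lower and 11 higher, where 9.02% of all genes were lower and 3.62% higher. On the ERCC scale the median log2 fold change of the 103 genes was 0.23, against -0.69 for all genes. A gene count takes in all transcripts of the gene, and among the 48 tested genes with no other annotated transcript 0 fell and 0 rose, with a median of 0.39 (0 lower and 1 higher at an unadjusted p under 0.05, and 0 of each by DESeq2).

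Spin1, which encodes a histone-methylation reader, was the most highly counted of these genes. It had 1511 to 5751 scaled counts in TBP_LOF (median 3539) and 1754 to 5168 in TBP_CONTROL embryos (median 2449), with a log2 fold change of 0.45 ± 0.26 (SE; edgeR adjusted p = 0.271). Tesc, a calcium-binding protein, and Pld1, a phospholipase D, had log2 fold changes of 0.14 ± 0.31 and 0.57 ± 0.35. Gm3143 and Gm42553 had 0.50 ± 0.35 and 0.47 ± 0.36. None of these 5 passed the test.

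Among the genes that fell, the antisense transcript 1600010M07Rik had 5.13 to 127.0 scaled counts in TBP_LOF (median 36.3) and 94.7 to 342.5 in TBP_CONTROL embryos (median 191.0), and the ranges overlapped. It fell by 1.96 on the log2 scale (SE 0.49; edgeR adjusted p = 0.00862), and Ppp2r2a, a regulatory subunit of protein phosphatase 2A, fell by 1.35, with 10.6 to 98.5 against 68.9 to 196.6 scaled counts. The DNA mismatch repair gene Msh6, the kinetochore gene Cenpk, and Serpinc1, Gm15441 and Cfap61 also fell, with log2 fold changes of -1.13 to -2.87.

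Transcripts stored in the oocyte, among which MTA RNA is carried into the embryo, were counted from a list. Of 39 tested oocyte transcripts 4 were lower and 0 higher, where 21.0% of all genes were lower and 0.575% higher in the same fit, with a median log2 fold change of 0.07 against -0.69 for all genes. Under TMM scaling 4 were lower and 8 higher, where 9.02% of all genes were lower and 3.62% higher. On the ERCC scale 6 were lower and 3 higher at an unadjusted p under 0.05, against 5931 and 372 of all 18448 genes. DESeq2 gave 6 lower and 0 higher, against 29.6% and 0.642% of all genes. The lower ones were Gpr3, which keeps the oocyte in meiotic arrest (-2.36 ± 0.34), the mitotic cyclin Ccnb1 (-1.64 ± 0.30), the ubiquitin-conjugating enzyme Ube2c (-1.82 ± 0.35) and the zona pellucida gene Zp3 (-1.83 ± 0.38). Oosp1, Gdf9 and Bmp15, secreted by the oocyte, had log2 fold changes of 0.07 ± 0.27, 0.09 ± 0.28 and 0.69 ± 0.30 and did not pass.

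Of 33 tested 2-cell transcripts 2 were lower and 3 higher, against the same 21.0% and 0.575% of all genes, with a median of 0.19. Under TMM scaling 2 were lower and 7 higher, against 9.02% and 3.62% of all genes. The homeobox gene Obox6 fell by 1.97 and Ubtfl1 by 1.84 on the log2 scale, whereas Tcstv3 (1.77 ± 0.38), Gm5662 (1.86 ± 0.53) and Gm8300 (1.78 ± 0.60) rose. Several of these genes belong to families of near-identical copies, between which reads may be split.

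Among TBP, its paralogues and other factors of TATA-dependent initiation (subunits of TFIIA, TFIIB and TBP-associated factors), 1 of 10 tested genes fell and 0 rose (0 also at an unadjusted p under 0.05 and by DESeq2), where 21.0% of all genes were lower. Tbp mRNA had 6.59 to 150.9 scaled counts in TBP_LOF and 195.5 to 672.2 in TBP_CONTROL embryos, a log2 fold change of -2.14 ± 0.43 (SE; edgeR adjusted p = 0.00165). Since Trim-Away acts on the protein, the mRNA level is no measure of its removal. Tbpl2, the oocyte paralogue, was barely read, at 0 to 8.79 and 0 to 8.68 scaled counts, with a log2 fold change of 0.22 ± 0.93. Tbpl1 (-0.52 ± 0.38) and the TFIIA subunits Gtf2a1 (-0.11 ± 0.29) and Gtf2a2 (0.11 ± 0.32) did not pass.

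In the FOXJ3 experiment the MTA families did not differ between the groups at the precision reached. MTA_Mm had 46270 to 229500 TMM-scaled counts in 16 FOXJ3_LOF embryos (median 83250) and 49010 to 246000 in 13 FOXJ3_CONTROL embryos (median 96510), and with library batch in the model its log2 fold change was -0.12 ± 0.20 (SE; edgeR with TMM scaling, adjusted p = 0.976). MTA_Mm-int was at -0.002 ± 0.15 (adjusted p = 0.9998), and 0.0102% of 19518 genes and families passed in that comparison. The difference between the TBP and FOXJ3 experiments was not tested.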

How the data were processed

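Single late 2-cell embryos were profiled by Smart-seq+5'. Per the study's methods and the labels, the authors trimmed the reads with Trimmomatic, sorted 5' transcript-end reads from internal fragments, aligned them with STAR 2.7.11a to GRCm38 with the injected mCherry-Trim21 construct added, and counted read 2 with TEcount (genes and transposable element families) and TElocal (genes and single insertions). The deposited values used here are estimated counts (expected counts written as whole numbers, not scaled, 1 embryo per file). The mode for reads with several positions and the strand setting were not found in the methods or labels, and reads may be split among similar MTA copies or assigned to a copy on the opposite strand.

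Groups were taken from the labels (9 TBP_LOF and 10 TBP_CONTROL embryos, whereas the study's methods give these numbers in the opposite order). Embryos with fewer than 500000 counted reads were left out, which removed TBP_CONTROL embryo 7 (459162 reads) and 1 FOXJ3_LOF embryo. Per the labels, all TBP embryos were processed at once after collection in several biological replicates, whose link to single embryos is not given in the labels, so that collection could not be used as a term, and p-values measure the spread between single embryos. Of the family rows, 42 subfamily rows were added to 6 families. Features counted in 25% or more of the embryos were tested with the edgeR 4.0.16 quasi-likelihood test (R 4.3.3), two-sided, with size factors from the 42 ERCC transcripts read in every embryo and Benjamini-Hochberg adjustment over all 59208 insertions and genes, or all 19357 families and genes, at a threshold of 0.05. A positive log2 fold change means a higher level in LOF, and standard errors were taken from the F statistic. The FOXJ3 fit used TMM scaling with library batch as a covariate. Family ratios were tested with two-sided exact permutation tests (scipy 1.17.1). A fold against a group without reads was computed against a floor of 3 reads over the group, and intervals and floors cover counting error only. The scripts were tested on simulated data. Alternatives were TMM and DESeq2 size factors, the DESeq2 1.42.0 test (adjusted p left as NA where DESeq2 gave none), filterByExpr, no filter, all 19 embryos, a replicate block and leaving out each embryo in turn.

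Named insertions were the 5 LTRs and 3 internal regions with the smallest adjusted p past the threshold in each direction, and the 6 LTRs and 4 internal regions with the highest TBP_CONTROL mean. Others were named after their values were seen. The members and gene lists were chosen with earlier results of these data known, and the search for MaLR-type starts in gencode M21 transcripts and RefSeq promoters was set up after the values were seen and is a description. The deviations of same-numbered embryos were correlated at -0.16 to 0.25 over 7 pairs, of which 4 were over 0.1. Because not every pair was over 0.1, the embryo numbers were not used as pairs. The values of 1 gene with a MaLR-type start are not reported here.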

Additional observations from a re-analysis of the deposited data

Results flagged for a closer look

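Of 90 groups of embryos examined for a single embryo far from the others (Dixon's test at the 95% level), 18 were flagged. The nominal rate of 1 in 20 groups holds for normally distributed values. It does not hold for skewed counts with many zeros, so 18 of 90 is not set against it. Many of the flagged groups are insertions with few reads, in which 1 embryo with a read stands apart from embryos with none.

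Among the insertions, in scaled counts, 1 TBP_LOF embryo stood apart at 0.24 for MTA_Mm_dup4232 (embryo 11, others 0), 10.2 for MTA_Mm_dup4674 (embryo 2, next 3.67), 71.5 for MTA_Mm_dup14405 (embryo 8, next 21.7), 6.35 for MTA_Mm-int_dup2991 (embryo 8, next 1.47), 44.3 for MTA_Mm-int_dup1499 (embryo 10, next 21.7), 1023 for MTA_Mm_dup2457 (embryo 10, next 34.5) and 164.2 for MTA_Mm_dup4193 (embryo 11, next 69.9). A single TBP_CONTROL embryo stood apart at 9.99 for MTA_Mm_dup4114 (embryo 5), 10.4 for MTA_Mm_dup5031 (embryo 6), 0.34 for MTA_Mm_dup4674 (embryo 9), 1.74 for MTA_Mm_dup14405 (embryo 6), 10.4 for MTA_Mm-int_dup2924 (embryo 8), 270.7 for MTA_Mm-int_dup595 (embryo 6) and 38.0 for MTA_Mm_dup2457 (embryo 9).

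Among the families, TBP_LOF embryo 8 stood apart at 11400 scaled counts for ORR1A0 (next 6487) and 143000 for MT2_Mm (next 67940). TBP_CONTROL embryo 2 stood apart at 76480 for MT2_Mm (next 51530) and TBP_CONTROL embryo 6 at 1336 for MTB_Mm (next 900.8).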

How the results depend on the processing

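Scalings that set the bulk of features to no change raised the count of higher members, and filterByExpr gave the fewest lower ones. With TMM scaling 8 members were lower and 193 higher, and with DESeq2 size factors 9 and 280. The median log2 fold change of the members was 0.85 and 0.92, and that of all features -0.06 and -0.01. With TMM scaling 6.76% of all features were lower and 2.64% higher, and the shares with DESeq2 size factors are not given here. Under the same settings the MTA_Mm family was higher by 1.09 and 1.12 and MTA_Mm-int by 0.98 and 1.01 on the log2 scale, past the threshold (edgeR adjusted p = 0.00667 and 0.00299 with TMM). TMM scaling also called 12 oocyte and 9 2-cell transcripts in either direction, and 2 genes with a MaLR-type start as lower. Under TMM scaling 9.02% of all genes were lower and 3.62% higher. With filterByExpr, which tested far fewer members, 5 were lower and 5 higher. With no filter 18 were higher, and with the DESeq2 test 11. The shares of all features with filterByExpr and with no filter are not given here, so those counts are not read as a trait of MTA copies. In the FOXJ3 experiment ERCC scaling gave 0.012 for MTA_Mm and 0.12 for MTA_Mm-int, with the sign turned, and the cause was not tested.

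Leaving out 1 embryo gave 15 to 32 lower and 19 to 41 higher members, medians of 0.13 (without TBP_LOF embryo 8) to 0.40, and log2 fold changes of 0.14 to 0.43 for MTA_Mm and 0.08 to 0.33 for MTA_Mm-int, none past the threshold. The shares of all features called in these fits are not given here. The MTA_Mm to ORR1A0 and ORR1A1 log2 ratio differences ranged from 1.86 to 2.08 and from 2.43 to 2.67 and kept their calls, also with TElocal sums, a pseudocount of 10 reads, all 19 embryos and the replicate block. The MTA_Mm to MTB_Mm difference ranged from -0.080 to 0.078 and that to MT2_Mm from -0.14 to 0.12, around 0, and turned sign in 8 and 3 of 18 fits. The replicate block, over 14 embryos with 7 shared numbers, gave 7 lower and 7 higher members, where the same 14 embryos without the block gave 7 and 9. Over all features the block gave 3946 lower and 328 higher, and the same embryos without it 3685 and 230. MTA_Mm_dup4114, MTA_Mm_dup2065, MTA_Mm_dup4232 and MTA_Mm_dup5031 did not pass with the block (edgeR adjusted p of 0.225 to 0.476). Same-numbered pairs correlated at -0.16 to 0.25, with 4 of 7 over 0.1 in the TBP experiment, and at -0.21 to 0.27, with 3 of 12 over 0.1, in the FOXJ3 experiment, so not every pair was over 0.1 and the numbers were not taken as pairs. Single insertions had a median standard error of 0.96 on the log2 scale, and the part of depth in it was not tested.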
